A study of Mus musculus with 4 samples.

Results

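The genes described here are 10 genes of the mTOR pathway, namely Mtor, Rptor, Rictor, Mlst8, Tsc1, Tsc2, Rheb, Rps6kb1, Eif4ebp1 and Eif4ebp2, chosen by symbol out of the 23420 genes listed in the expression table. All 10 were listed. RNA-seq was performed on wild-type pachytene spermatocytes that had been sorted by FACS from the testes of C57BL/6 mice of 23 weeks of age. The sorted cells were cultured for 24 h with DMSO (Ctrl) or with 10 μM AZ20, a compound that inhibits the kinase ATR. Each group had 2 libraries of 15000 cells, and since the methods describe dividing the testicular cells of each mouse over both conditions, libraries of the same replicate number were taken as a pair. All groups therefore share the sort, the culture and the wild-type background, and uncultured cells were not analysed here. The sample labels give a culture temperature of 34 °C and the methods 32 °C.

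mTOR is a protein kinase of the PI3K-like family to which ATR also belongs, and it couples growth factors, amino acids and energy to protein synthesis and autophagy. It works in a complex with RAPTOR (mTORC1) or with RICTOR (mTORC2), and MLST8 is found in both. The GTPase RHEB switches mTORC1 on, and the TSC complex of TSC1, TSC2 and TBC1D7 holds RHEB in its inactive state. The best known mTORC1 substrates are the kinase S6K1, the product of Rps6kb1, and the translation repressors 4E-BP1 and 4E-BP2, which bind the cap-binding protein eIF4E until mTORC1 phosphorylates them. In the testis the pathway is best known for its part in the maintenance and differentiation of spermatogonia. Phosphorylation and kinase activity were not measured in these data, which give transcript levels only. Whether AZ20 also acted on mTOR itself in these cells was therefore not tested.

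The deposited values are TPM, a unit scaled for both gene length and library size. Comparisons between genes rest on the gene lengths used and on even read coverage, which were not checked here. The whole reads behind the TPM values were recovered, with 13934879 and 15810463 reads on genes for Ctrl and 20191555 and 18495990 for AZ20. The limma test was run on log2(TPM + 1) over the 10316 genes whose mean exceeded 1 TPM in either group, and p-values were adjusted by Benjamini-Hochberg over all of them. To be called, a gene had to change 2-fold or more with an adjusted p below 0.05. The added 1 makes fold changes of weakly expressed genes smaller than they are in TPM. Intervals given as folds below are likewise folds of TPM + 1. The methods describe the replicates as independent biological ones. The summed level of 10 listed markers of pachytene spermatocytes was 9850 to 10600 TPM in the 4 libraries, with the synaptonemal complex gene Sycp3 at 2061 TPM or more. The exception was Hist1h1t, the gene of the histone variant H1T, which the study stained to stage its cells, at 0 to 1.52 TPM. That staining was of protein and was also done on the sorted cells, and the RNA level here does not measure it. Sertoli cell markers summed to 0.0529 and 0.0984 TPM in Ctrl and 1.05 and 0.651 TPM in AZ20, with Sox9 and Wt1 at 0. The sums for Leydig cells, macrophages and peritubular myoid cells were 4.60 TPM or less, with Cyp11a1, Cyp17a1 and Insl3 at 0. Spermatogonial markers summed to 43.1 and 54.6 TPM in Ctrl and 53.9 and 75.5 TPM in AZ20, most of it from Id4 and Uchl1, with Stra8 and Dmrt1 at 0. Round spermatid markers summed to 366 and 151 TPM in Ctrl and to 773 and 252 TPM in AZ20, so the sum was higher in the first replicate in both groups and higher with AZ20 in both pairs, as were 5 of the 7 markers in each respect. The Sertoli and spermatogonial sums were also higher with AZ20 in both pairs, with 1 of 8 and 4 of 8 listed markers higher in both. So were the macrophage and pachytene spermatocyte sums, with 2 of 5 and 2 of 10 listed markers. The Leydig and peritubular myoid sums were not. The part of these transcripts in the differences between Ctrl and AZ20 given below was not tested. In bulk samples, fewer cells of a type and less RNA per cell cannot be told apart.

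The transcripts of the 10 genes were spread over a wide range in pachytene spermatocytes, and 1 member stood far above the rest. Rheb, the mTORC1 activator, was at 298 and 355 TPM in Ctrl and 309 and 343 TPM in AZ20. This placed it at rank 628 of the 23420 genes by mean log2(TPM + 1). Its mean over the 4 libraries was 26.0 times that of Mtor, the next member, and the ranges of these members did not overlap. Mtor was followed by Eif4ebp1 and Rps6kb1, whose ranges overlapped and which took different orders in different libraries. Next came Tsc1, whose range overlapped that of Rps6kb1 and, in the AZ20 libraries, also that of Eif4ebp1, although it was below Rps6kb1 in all 4 libraries. It was followed by Tsc2 and Rictor, which overlapped each other but lay wholly below Tsc1. Mlst8, Rptor and Eif4ebp2 were lowest, with means of 1.05, 0.852 and 0.678 TPM over the 4 libraries, and neighbours among them overlapped.

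**Figure D1:**
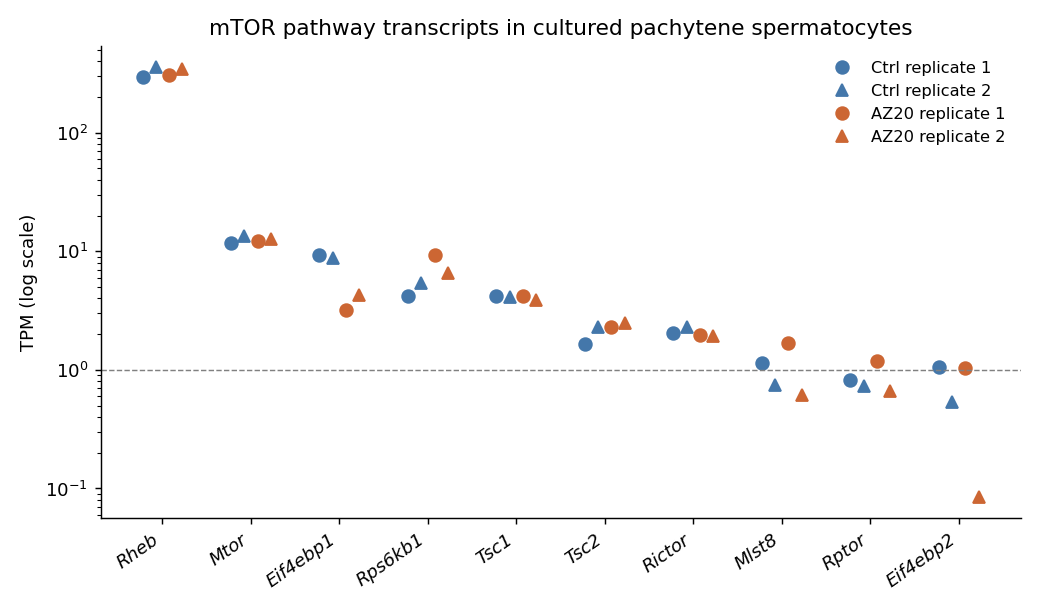
TPM (log axis) of the 10 mTOR pathway genes in each library, ordered by their mean, with Ctrl in blue, AZ20 in orange, circles for the first replicate and triangles for the second. Rheb lies at 298 to 355 TPM, and Mlst8, Rptor and Eif4ebp2 lie around the dashed line at 1 TPM.

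With AZ20, 0 of the 8 members that could be tested were called higher and 0 were called lower, against 2.28% and 0.0485% of all tested genes. This fit had no term for the replicate pairs. With the replicate number as a block, 1 member, Eif4ebp1, was called lower (limma adjusted p = 0.0109) and 0 higher, against 0.223% and 4.11% of all tested genes. Without the block, at an unadjusted p under 0.05, 0 members were higher and 1, Eif4ebp1, was lower, against 8.03% and 1.13% of all tested genes. Rptor and Eif4ebp2 did not reach a mean of 1 TPM in either group and were outside this test. The median change of the 8 members was -0.01 on the log2 scale, beside 0.07 over all genes tested. Both AZ20 libraries lay above both Ctrl libraries for 1 member (Rps6kb1), and below them for 2 (Rictor and Eif4ebp1). Among all tested genes such separation was seen for 26.4% upward and 11.7% downward, so these counts are near the background. All 10 members lie on autosomes. The shares over all tested genes include X-linked genes, most of which the paper found upregulated with AZ20, and it found few changed genes on autosomes. These shares are therefore not the shares of autosomal genes, which were not computed here.

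Mtor, the catalytic subunit of both complexes, was expressed alike in the libraries of both conditions. The gene, which lies on chromosome 4 of GRCm38 (148448611 to 148557683, plus strand), was at 11.8 and 13.5 TPM in Ctrl and 12.2 and 12.7 TPM in AZ20, on 1023 to 1525 reads. Both AZ20 values fell between the Ctrl values. The log2 change was -0.02 (standard error 0.22, limma adjusted p = 0.992), and its 95% interval ran from 0.685-fold to 1.42-fold. No difference beyond the replicate spread was seen, and with 2 libraries in each group changes inside that interval were not excluded.

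Of the subunits that set the identity of the complexes, Rictor of mTORC2 was more abundant than Rptor of mTORC1 in every library. Rictor was at 2.06 and 2.28 TPM in Ctrl and 1.96 and 1.94 TPM in AZ20, and its change was -0.10 on the log2 scale (standard error 0.28, limma adjusted p = 0.958). Rptor was at 0.829 and 0.738 TPM in Ctrl and 1.18 and 0.660 TPM in AZ20, on 58 to 119 reads. Both Rictor values with AZ20 lay just below the Ctrl values, whereas for Rptor the AZ20 libraries stood above and below both Ctrl libraries. Within a library, Rptor was 0.402 and 0.324 of Rictor in Ctrl and 0.601 and 0.340 of it in AZ20 (two-sided exact permutation test on the difference of log2(TPM + 1), p = 0.667, adjusted over 5 gene pairs 0.667). With 2 libraries against 2, the smallest p that this test can give is 0.333.

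Mlst8, whose product stabilizes the kinase domain in both complexes, was at 1.15 and 0.747 TPM in Ctrl and 1.70 and 0.611 TPM in AZ20. The groups overlapped, and the widest gap was between the AZ20 replicates, on 83 and 27 reads. Its log2 change was 0.11 (standard error 0.38, limma adjusted p = 0.970), with a 95% interval from 0.575-fold to 2.01-fold of TPM + 1. At this low level that interval is narrower than one in TPM, and with a pseudocount of 0.1 the standard error was 0.67. In GENCODE, 22.5% of the exonic bases of Mlst8 are shared with Bricd5 on the opposite strand. The use of strand in counting is not given in the sources used here, so reads of these genes cannot be told apart there. Mlst8, Rptor and Eif4ebp2 were each lower in replicate 2 than in replicate 1 within both conditions, as was the summed level of the round spermatid markers. Tsc1 was slightly lower in replicate 2 within both conditions too, whereas Mtor, Tsc2 and Rheb were higher in it within both. The part of the spermatid transcripts in these gaps was not tested.

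The other subunits of the complexes were not members, but put these levels in context. Mapkap1, which encodes the SIN1 subunit of mTORC2, was the highest subunit transcript of either complex at 22.0 to 24.7 TPM. Akt1s1, which encodes the mTORC1 component PRAS40, was at 7.77 to 11.1 TPM. The difference of Mapkap1 was -0.07 on the log2 scale (limma adjusted p = 0.960) and that of Akt1s1 was -0.18 (limma adjusted p = 0.902), neither of which passed the test. Deptor, an inhibitor of mTOR, and the mTORC2 genes Prr5 and Prr5l held at most 1 read in any library. Among the PI3K-like kinases, Mtor was second to Atr, the gene of the kinase that AZ20 was used to inhibit, which was at 80.9 to 93.2 TPM. Smg1 was at 8.07 to 8.76 TPM, and Trrap, Atm and Prkdc were between 1.19 and 3.04 TPM. Changes of these 5 relatives lay between -0.08 and 0.25 on the log2 scale, and 0 of 5 were called.

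Neither gene of the inhibitory TSC complex among the members passed the test. Tsc1, the scaffold of the TSC complex, was at 4.16 and 4.08 TPM in Ctrl and 4.22 and 3.86 TPM in AZ20, a change of -0.02 on the log2 scale (standard error 0.26, limma adjusted p = 0.993). Tsc2, which carries the activity that inactivates RHEB, was at 1.66 and 2.31 TPM in Ctrl and 2.30 and 2.50 TPM in AZ20, a change of 0.20 on the log2 scale (standard error 0.29, limma adjusted p = 0.913). The AZ20 values of Tsc1 spanned those of Ctrl, and those of Tsc2 lay close to the higher of its Ctrl values. Of the exonic bases of Tsc2, 7.20% are shared with Pkd1 on the opposite strand. Tsc1 exceeded Tsc2 in all 4 libraries, by 2.50 and 1.76 times in Ctrl and by 1.83 and 1.54 times in AZ20 (two-sided exact permutation test, p = 0.667). Tbc1d7, the third subunit, named after its values were seen, was far above both at 52.4 to 74.3 TPM.

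Rheb, which lies on chromosome 5 (24802823 to 24842624), held between 4566 and 6845 recovered reads in a library and had the narrowest interval of the members. Its log2 change was 0.00 (standard error 0.16, limma adjusted p = 0.999), and the 95% interval ran from 0.765-fold to 1.31-fold. Replicate 2 was above replicate 1 in both conditions, so the libraries ordered by replicate number and not by treatment. Its paralog Rhebl1 held 4 reads and none in Ctrl and 20 reads and 2 in AZ20, at 1.13 TPM or less, and was not tested. Rheb was thus at least 273 times Rhebl1 in the 3 libraries where Rhebl1 had a read. The longest stretch of 97% identity or more between a Rheb transcript and a transcript of another GENCODE gene was 102 bases, so near-identical copies take up little of the sequence.

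Rps6kb1, the gene of S6K1, lay higher with AZ20 in both pairs, but the difference did not pass the test. It lies on chromosome 11 (86498871 to 86544805). It was at 4.18 and 5.44 TPM in Ctrl (mean 4.81 ± 0.888, SD, n = 2) and at 9.30 and 6.58 TPM in AZ20 (mean 7.94 ± 1.93, SD, n = 2). The groups did not overlap, and AZ20 replicate 1 was the highest library by a wide margin. The change of log2(TPM + 1) was 0.99 in the first pair and 0.23 in the second, and 0.61 in the fit (standard error 0.28, limma adjusted p = 0.600, unadjusted p = 0.0651). With the replicate number as a block the standard error was again 0.28, the unadjusted limma p was 0.0378 and the adjusted p was 0.325. Counting error was small beside this spread, since 333, 495, 1067 and 681 reads gave 95% Poisson intervals of 3.75 to 4.66, 4.97 to 5.94, 8.75 to 9.88 and 6.09 to 7.09 TPM for Ctrl replicates 1 and 2 and AZ20 replicates 1 and 2. Such intervals cover counting error only, because PCR copies are not independent molecules. The paralog Rps6kb2, which encodes S6K2, was at 0.332 and 1.98 TPM in Ctrl and 0.923 and 0.204 TPM in AZ20, on 34 reads or fewer. Rps6kb1 was above Rps6kb2 in all 4 libraries, by 2.75 to 32.2 times. Rps6, which encodes the ribosomal protein that S6 kinases phosphorylate and was named after its values were seen, was at 480 to 628 TPM, with a log2 change of -0.19 (limma adjusted p = 0.816).

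**Figure D2:**
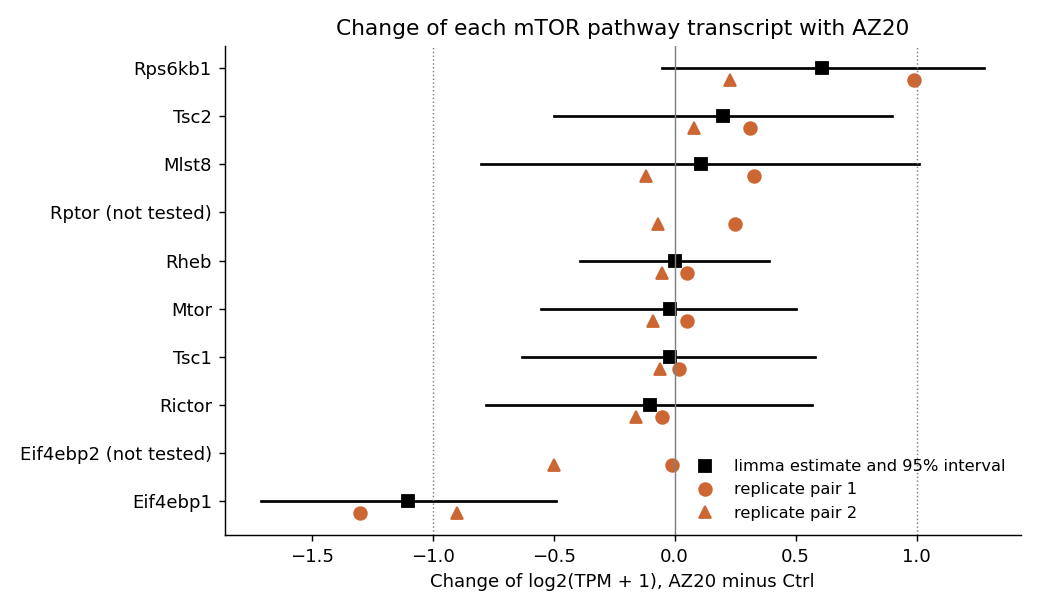
Change of log2(TPM + 1), AZ20 minus Ctrl, for each of the 10 genes, with the limma estimate and its 95% interval as black squares and lines and the changes of replicate pairs 1 and 2 as orange circles and triangles. The interval of Eif4ebp1 lies below 0, from -1.71 to -0.49, that of Rps6kb1 runs from -0.05 to 1.28, and the other 6 intervals include 0. Dotted lines mark a 2-fold change.

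Eif4ebp1, the gene of 4E-BP1, had the largest difference of the members, and was lower with AZ20 in both pairs. It lies on chromosome 8 (27260329 to 27276674). It was at 9.40 and 8.84 TPM in Ctrl (mean 9.12 ± 0.395, SD, n = 2) and at 3.23 and 4.27 TPM in AZ20 (mean 3.75 ± 0.741, SD, n = 2). The highest AZ20 value was less than the lowest Ctrl value by a margin wider than either replicate gap. The mean in AZ20 was 0.411 of that in Ctrl. The AZ20 libraries held 46 and 55 reads of Eif4ebp1 although they were the deeper ones, against 93 and 100 reads in Ctrl. These reads rest on the rule for recovering them, since requiring a gene length of at least 0.9 of the shortest annotated transcript gave 186, 200, 92 and 110 reads, and likewise doubled those of Rheb. With the smaller numbers the 95% Poisson intervals were 7.58 to 11.5 and 7.19 to 10.7 TPM in Ctrl and 2.36 to 4.30 and 3.22 to 5.56 TPM in AZ20.

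In the fit, the log2 change of Eif4ebp1 was -1.10 (standard error 0.26, unadjusted p = 0.00372), which corresponds to 0.307-fold to 0.711-fold in its 95% interval. After adjustment over 10316 genes it was not called (limma adjusted p = 0.126). Of all tested genes, 26 had a lower change than Eif4ebp1 and 304 a smaller p. With the replicate number as a block the change was the same and Eif4ebp1 was called lower (limma adjusted p = 0.0109). This made it the only member called in any fit that was run. The standard error of its change was 0.28 with the block and 0.26 without it, so the pairing did not make the estimate more precise. The block fit leaves 1 residual degree of freedom, and its lower p rested on degrees of freedom that limma pools over genes. Under the block 23 genes were called lower in all, against 5 without it. Leaving out 1 library gave changes of -1.26 to -0.94 and limma adjusted p of 0.462 to 0.546, and over all alternatives the adjusted p ran from 0.0109 to 0.546.

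Eif4ebp2, the gene of 4E-BP2, was a minor transcript in these cells. It was at 1.05 and 0.534 TPM in Ctrl and at 1.04 and 0.0853 TPM in AZ20, on 19, 11, 27 and 2 reads. The groups overlapped, and the 95% Poisson interval of the lowest library, 0.0103 to 0.308 TPM, overlapped that of Ctrl replicate 2 (0.267 to 0.955 TPM). It lay below those of Ctrl replicate 1 (0.635 to 1.65 TPM) and AZ20 replicate 1 (0.685 to 1.51 TPM). When all genes above 0 TPM were tested, an alternative chosen after seeing the data, its log2 change was -0.25 (limma adjusted p = 0.910) and that of Rptor was 0.09 (limma adjusted p = 0.950). Eif4ebp1 exceeded Eif4ebp2 by 8.91 and 16.6 times in Ctrl and by 3.10 and 50.1 times in AZ20 (two-sided exact permutation test on the difference of log2(TPM + 1), p = 0.333).

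The third 4E-BP gene, Eif4ebp3, is not a member but completes the family. It was at 5.60 and 6.55 TPM in Ctrl and 4.60 and 4.37 TPM in AZ20, and both AZ20 libraries were below both Ctrl libraries. Its log2 change was -0.36 (standard error 0.25, limma adjusted p = 0.771), and it was not called. GENCODE gives a protein-coding gene on the same strand that shares 67.3% of the exonic bases of Eif4ebp3, so its level is uncertain. Summed over the 3 genes, a sum taken after the values were seen, 4E-BP transcripts came to 16.0 and 15.9 TPM in Ctrl and 8.87 and 8.73 TPM in AZ20. Eif4ebp1 made up 58.6% and 55.5% of this sum in Ctrl and 36.4% and 49.0% in AZ20. Eif4e, the gene of the protein that 4E-BPs bind, was at 368 and 372 TPM in Ctrl and 331 and 377 TPM in AZ20 (log2 change -0.06, limma adjusted p = 0.952). Eif4e transcripts were therefore 22.9 and 23.3 times the 4E-BP sum in Ctrl and 37.4 and 43.2 times in AZ20.

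**Figure D3:**
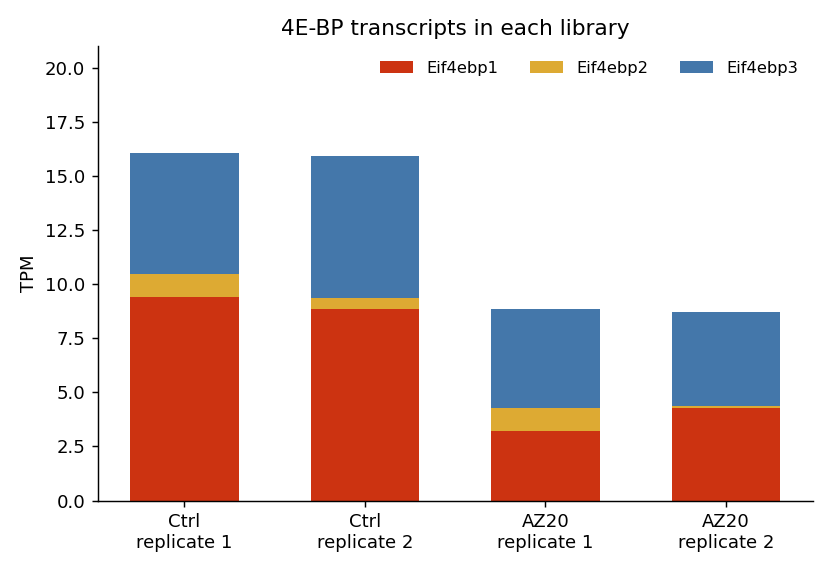
TPM of Eif4ebp1 (red), Eif4ebp2 (yellow) and Eif4ebp3 (blue) stacked for each library, on a linear axis from 0. The bars reach 16.0 and 15.9 TPM in Ctrl and 8.87 and 8.73 TPM in AZ20, and Eif4ebp2 is the thinnest part of every bar.

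The genes whose values over the 4 libraries were most like those of Eif4ebp1, by Euclidean distance of log2(TPM + 1) centred on each gene's mean, were Slc3a2 (distance 0.169), Ly96 (0.267) and Nudt7 (0.303). Slc3a2, which encodes the heavy chain of several amino acid transporters, was at 108 and 94.5 TPM in Ctrl and 44.0 and 47.5 TPM in AZ20 (log2 change -1.12, limma adjusted p = 0.0236). Slc3a2 was called lower, but Ly96 and Nudt7 were not (limma adjusted p = 0.188 and 0.346), and Ly96 held 12 reads or fewer. Since these genes were picked for their likeness to Eif4ebp1 in the same libraries, their lower level with AZ20 follows from the choice. Without any 1 of the 4 libraries Slc3a2 was no longer called (changes of -1.22 to -1.03, limma adjusted p 0.152 to 0.319). With the replicate block Ly96 was called too (limma adjusted p = 0.0475).

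**Figure D4:**
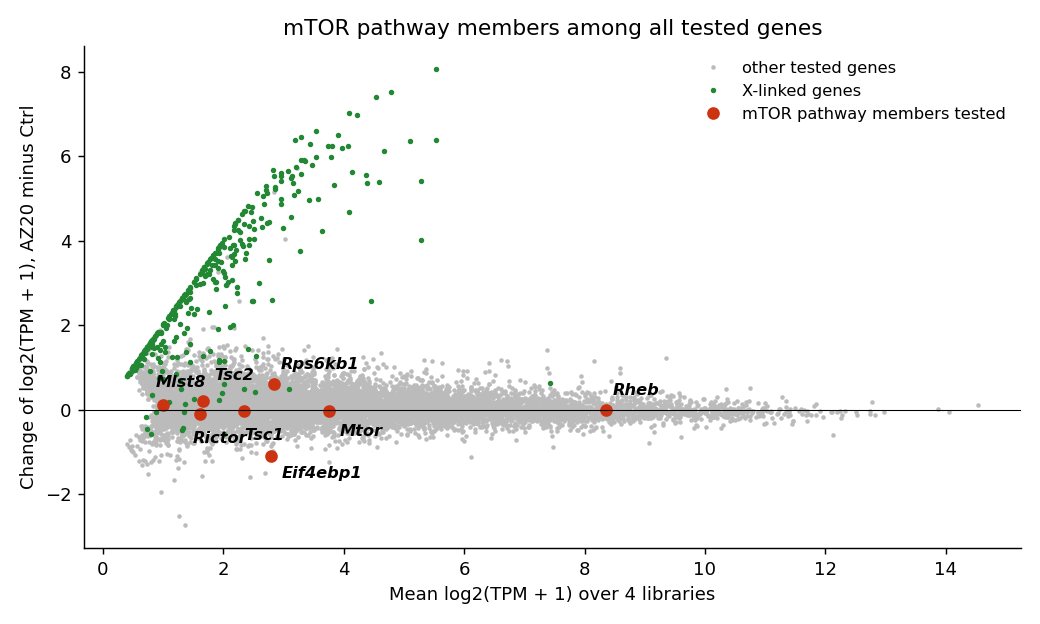
Change of log2(TPM + 1), AZ20 minus Ctrl, against mean log2(TPM + 1) for the 10316 tested genes, with X-linked genes in green and the 8 tested members in red. Rheb lies far to the right near 0, Eif4ebp1 lies at -1.10 near the lower edge of the grey cloud, and Rps6kb1 is the highest member at 0.61.

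The rest of the pathway was examined with a list of 89 genes that lie upstream of, within or downstream of the complexes. Of these, 62 were expressed above the threshold. By limma 0 were called higher and 0 lower, and 0 had an unadjusted p under 0.05 in either direction, against 8.03% higher and 1.13% lower among all tested genes. Their changes ran from -0.49 to 0.44 on the log2 scale, with a median of 0.04 beside 0.07 over all genes tested. Both AZ20 libraries lay above both Ctrl libraries for 10 of the 62 and below them for 6, against 26.4% and 11.7% of all tested genes. The shares of all tested genes again include X-linked genes, whereas the 62 hold none. The change of Eif4ebp1 lay below this range and that of Rps6kb1 above it. For Rps6kb1 this rested on AZ20 replicate 1, without which its change was 0.39 and that of Cab39, a gene of the list, was 0.68.

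By arm, the 20 tested genes of amino acid sensing, which include the Rag GTPases, the Ragulator and the GATOR complexes, had a median change of 0.09. The lowest of them was Lamtor3, a Ragulator subunit, at 47.6 and 60.1 TPM in Ctrl and 31.5 and 45.3 TPM in AZ20 (log2 change -0.49, limma adjusted p = 0.658). The 11 tested genes of the energy and stress arm, which senses AMP through AMPK, had a median of -0.06. Cab39, an adaptor of the kinase LKB1, stood highest there at 28.1 and 31.0 TPM in Ctrl and 34.2 and 47.8 TPM in AZ20 (log2 change 0.44, limma adjusted p = 0.677). Prkaa1, the AMPK catalytic subunit gene, stood lowest at 11.9 and 11.1 TPM in Ctrl and 7.70 and 9.28 TPM in AZ20 (log2 change -0.40, limma adjusted p = 0.722). Lamtor3, Cab39 and Prkaa1 were named after their values were seen. The 9 tested genes of the growth factor arm had a median of 0.03, the 13 targets and effectors a median of 0.02, and the 2 tested genes of the complex that assembles PI3K-like kinases a median of 0.21.

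**Figure D5:**
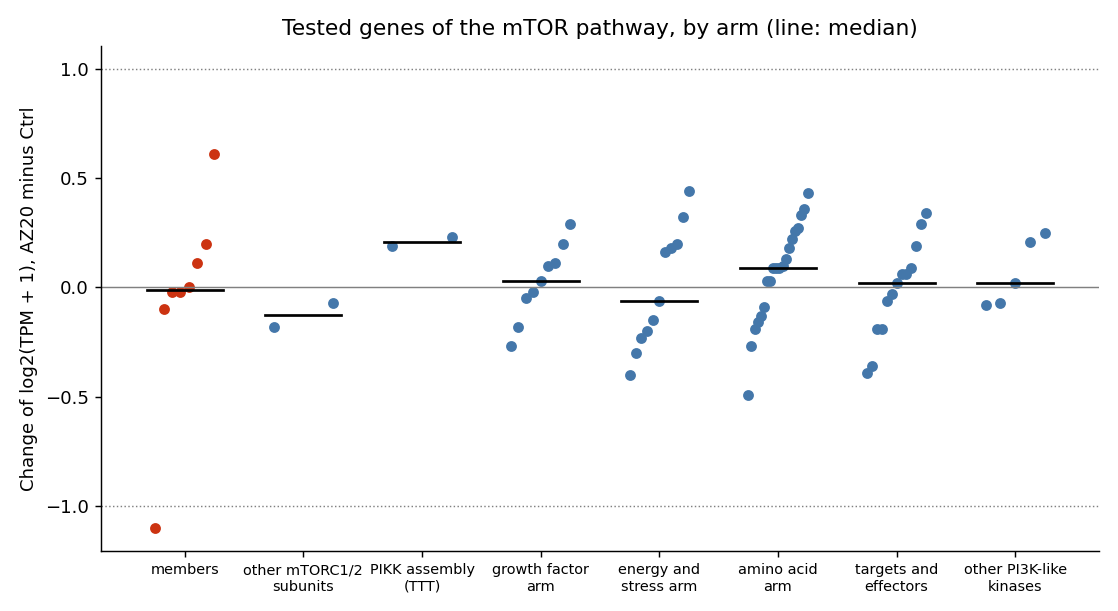
Change of log2(TPM + 1), AZ20 minus Ctrl, of the 8 tested members (red) and the 62 other tested pathway genes (blue) by arm, with 1 point for each gene, black lines at the medians and dotted lines at a 2-fold change. Apart from the members, all points lie between -0.49 and 0.44.

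The list held 2 X-linked genes, and both were below the expression threshold. Rragb, a Rag GTPase, had 0 TPM and 0 reads in all 4 libraries, and a count of 0 allows an expected number of up to 3 reads. Tfe3, a transcription factor that mTORC1 keeps out of the nucleus, was without a read in Ctrl, and its AZ20 libraries held 10 and 6 reads (0.189 and 0.126 TPM). The autosomal relatives Rraga and Tfeb were at 9.74 to 13.2 TPM and at 0 TPM in all 4 libraries.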

How the data were processed

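Per the labels and the paper's methods, the authors trimmed reads of 150 bp with Trimmomatic (version 0.39), aligned them to GRCm38 with STAR (2.5.4b) keeping unique alignments, counted them on refGene genes with featureCounts (2.0.1) and deposited TPM for each of the 4 libraries, with each column summing to 1000000. The authors' own test used DESeq2. Blank lines (92) were left out.

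TPM values were used as deposited. Log2(TPM + 1) was fitted with limma (3.58.1, R 4.3.3) with an intensity trend and no replicate term, over genes whose mean exceeded 1 TPM in either group, and p-values were adjusted over all of them. Whole reads were recovered as TPM times gene length over the value of 1 read, which short RNA genes of known length give. All 16857 genes above 0 came out whole, within the rounding of the deposited digits, but their lengths were searched for whole reads. Of the short RNA genes, whose lengths were fixed beforehand, 86.2% to 90.1% came out whole in a library. A gene's length was the smallest that gave whole reads and reached 0.2 of its shortest RefSeq-linked GENCODE transcript. This rule was the last of 5 tried, and was kept because its reads came closest to the mean counts in the study's source data, so that agreement is no independent check. It touches the printed reads, the Poisson intervals and voom, not the tests on TPM. At a minimum of 0.4 no member's reads differed, and at 0.9 those of 2 (Rheb and Eif4ebp1) doubled. The true reads of a gene may be a whole multiple of those printed. The recovery and the limma fit were also run on simulated libraries. Those were built from the recovered reads and lengths, so they are no independent check of the recovery.

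The methods describe each mouse's cells as divided over both conditions, and deviations of libraries of the same number correlated (0.229 over 10316 genes), so the replicate block was fitted as an alternative. Members and lists were chosen with earlier results of these data known. The named genes were the members, the remaining complex subunits, the paralogs of members, the other PI3K-like kinases, the X-linked genes of the list, listed genes called or with an unadjusted p under 0.05, and 3 genes most like the member of smallest p. Tbc1d7, Cab39, Prkaa1, Lamtor3, Eif4e, Rps6, Rraga and Tfeb and the sum of the 4E-BP genes were added after their values were seen. Positions and exon overlaps come from GENCODE M21 (GRCm38). Other alternatives were pseudocounts of 0.1 and 0.01, no expression filter, a mean TPM above 5, quantile normalization, no trend, no fold threshold, voom on the recovered reads, and leaving out each library. A mean TPM above 0 was added after the fit with no filter had been seen to call no gene. Other software was Python (3.11.15) with scipy (1.17.1), numpy (2.4.6) and pandas (2.3.3). The labels and methods name different HiSeq instruments.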

Additional observations from a re-analysis of the deposited data

How the results depend on the processing

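The counts of 0 members called higher and 0 of the 89 other pathway genes called in either direction held under every alternative run. Of the counts of members called lower, the replicate block moved 0 to 1 (Eif4ebp1), and it moved all genes called from 235 to 424 higher and from 5 to 23 lower. It changed no other call of a member. With no expression filter, on all 23420 listed genes, 0 genes were called higher and 0 lower, and Eif4ebp1 had an adjusted p of 0.423. That fit holds genes at 0 in every library, whose variance is 0. After this was seen, a fit on the 16857 genes with a mean TPM above 0 was added, which called 198 higher and 1 lower. Voom called 1 lower. Leaving out a library gave 0 to 184 higher and 0 to 1 lower over all genes, with 0 to 0 members. The block fit and a fit on 3 libraries each have 1 residual degree of freedom. In a fit on 3 libraries, the lone library of a group is assumed to vary like the others.

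Eif4ebp1 stayed lower throughout (-1.34 to -0.94, adjusted p 0.0109 to 0.546) and Rps6kb1 higher (0.38 to 0.83, adjusted p 0.325 to 0.954). Quantile normalization moved the median of all genes from 0.072 to -0.071, and turned Mlst8 (-0.26), Tsc2 (-0.07), Prkdc (-0.07), Smg1 (-0.19) and Trrap (-0.02). Voom turned Rheb (-0.03) and Smg1 (0.00). Leaving out a library turned the sign of Mtor (-0.11 to 0.07), Mlst8 (-0.04 to 0.48), Tsc1 (-0.07 to 0.03), Rheb (-0.13 to 0.13), Akt1s1 (-0.41 to 0.05), Atm (-0.27 to 0.12), Smg1 (-0.03 to 0.07), Tbc1d7 (-0.13 to 0.36) and Eif4e (-0.16 to 0.03), all uncalled. Slc3a2 lost its call with no expression filter, a mean TPM above 0 (0.0520), no trend (0.0787) or any library left out, and Ly96 gained one with the block and with no trend. With 2 libraries a group, a 2-fold change of TPM + 1 lay within the interval of Mlst8. In TPM larger changes of it were not excluded, since its standard error was 0.67 with a pseudocount of 0.1. The cause of these shifts was not tested.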
